A study of Mus musculus with 6 samples.

Results

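The genes described here encode the machinery that repairs DNA and halts the cell cycle while DNA is damaged. They were chosen by name from 5 repair pathways and the damage checkpoint. Of the 44 genes, 42 had a probe set that the platform table assigns to a single gene symbol, among 18194 such genes on the array, and each was represented by its probe set with the highest mean over all 6 arrays. Xrcc2 and Rbbp8 are not analysed here. The 42 comprised 14 genes of homologous recombination, 8 of the Fanconi anaemia pathway, 3 of mismatch repair, 4 of end joining, 6 of base excision and single-strand break repair and 7 of the checkpoint.

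The arrays were Affymetrix oligonucleotide arrays hybridised with amplified, biotin-labelled RNA of haematopoietic stem cells, the bone marrow cells from which all blood cells descend. One group of 3 arrays is labelled Lrg-47-/-, the older name of Irgm1, a GTPase that interferons induce, and the other group of 3 is labelled wild type. Both groups came from C57BL/6 mice of 8 to 12 weeks of age from a specific-pathogen-free facility, and the labels name no treatment for either. Stem cells were taken from whole marrow by their ability to pump out the dye Hoechst (the side population) together with Sca-1, c-kit and Lineage stains. The labels give neither the deleted part of Irgm1 nor the number of mice behind an array, so p-values measure the spread between arrays, which may be technical. The Irgm1 probe set read 7.68 to 8.58 on the knockout-labelled arrays and 8.36 to 8.57 on the wild-type arrays (log2 difference -0.41), so it does not separate the groups and they are named by their labels.

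Homologous recombination copies the missing sequence of a broken chromosome from the sister chromatid, so it works mainly in cells that are replicating or have replicated their DNA. Non-homologous end joining rejoins broken ends without a template and is open to resting cells, which makes it the route that quiescent stem cells largely depend on. Mismatch repair corrects replication errors, base excision repair removes single damaged bases, the Fanconi anaemia pathway unhooks crosslinks between the strands and is needed to keep blood stem cells alive, and the checkpoint kinases Atm and Atr signal broken and single-stranded DNA to Chek2 and Chek1.

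Expression of the repair genes leaned towards the knockout-labelled arrays, most of all in homologous recombination. Brca1, Rad54b and Rad51ap1 rose, between 1.84-fold and 2.20-fold, and no member fell. These 3 were the members past the threshold (limma, adjusted p under 0.05) among 38 tested, 7.89%, whereas 0.664% of all 22580 probe sets tested were called higher and 0.722% lower. In 33 of the 42 genes (78.6%) the mean was higher on the knockout-labelled arrays, against 51.5% of all probe sets tested. An unadjusted p under 0.05 was reached by 12 members upwards and 0 downwards (7.52% and 8.9% of all probe sets tested), and 6 members, Brca1, Brca2, Rad54b, Exo1, Fanca and Neil3, differed by at least 2-fold upwards (1.69%). The median log2 difference of the 42 was 0.29, against 0.01 over all probe sets tested. All 3 knockout-labelled arrays lay above all 3 wild-type arrays for 17 of the 38 tested members (44.7%, against 11.5% of all probe sets tested), and below them for 1, Fancc (against 11%). Outside homologous recombination, 21 of 28 members had a higher mean and 8 of 27 tested members had knockout-labelled arrays wholly above. In an amplified RNA from a sorted population, fewer cells of a type and less RNA per cell cannot be told apart.

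The other 4 members, Bard1, Brip1, Rad51c and Fancg, were not tested because they lay below the array median on too many arrays. Of the 38 tested members, 0 had no wild-type array above the median and 3, Fancb, Fancd2 and Lig4, had 1 or 2 such arrays.

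**Figure D1:**
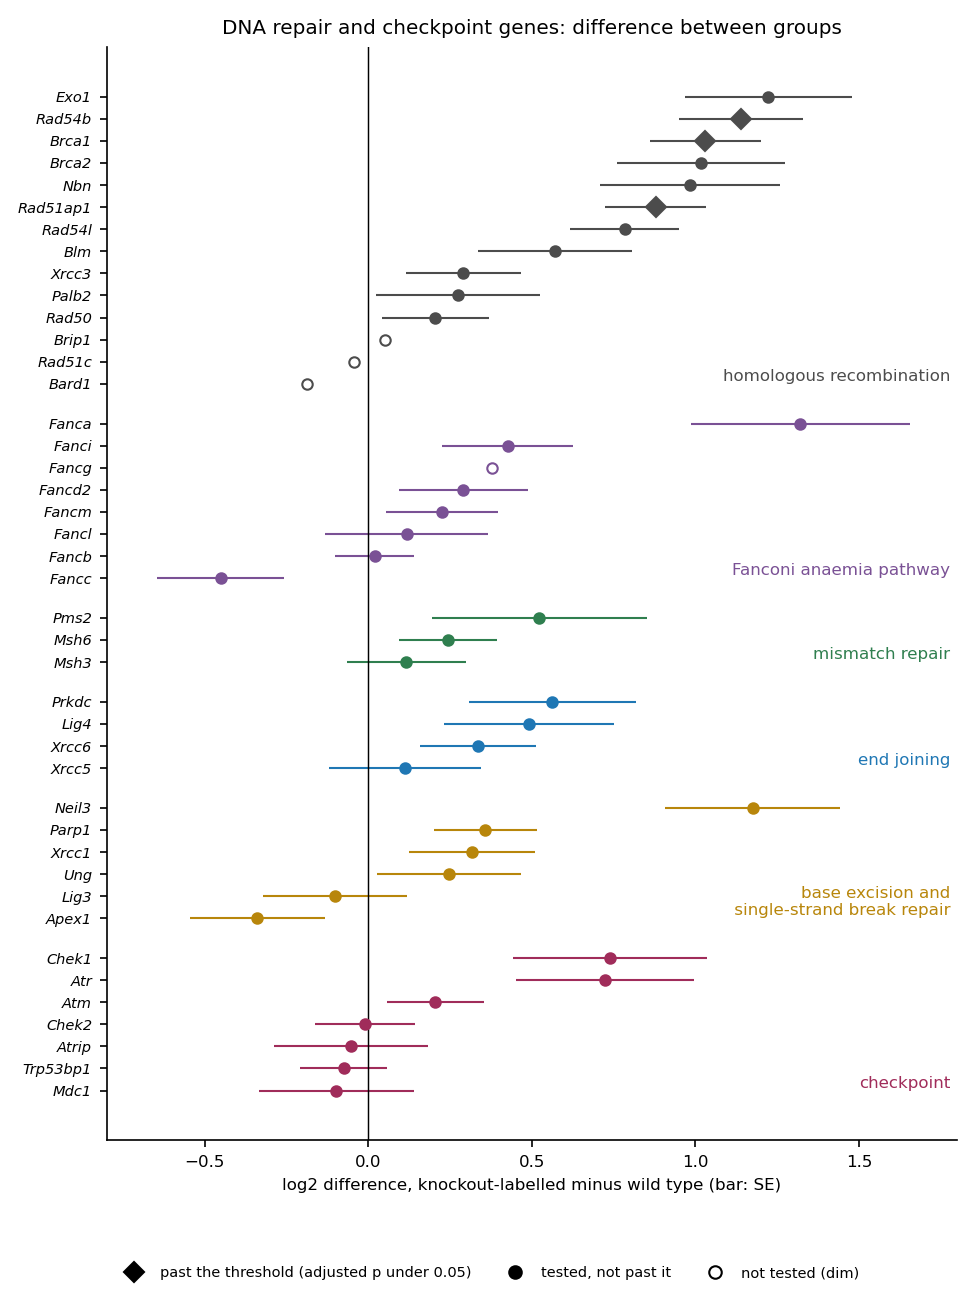
Log2 difference (knockout-labelled mean minus wild-type mean, 3 arrays each) of the 42 genes by pathway, with bars of 1 SE from limma and open points for the 4 genes not tested. The diamonds mark Rad54b, Brca1 and Rad51ap1, which passed the threshold, and 33 of the 42 points lie to the right of 0.

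Homologous recombination had the largest median difference of the 6 groups, 0.68 over its 14 genes. Of its 11 tested members 3 rose (27.3%, against 0.664% of all probe sets tested), 0 fell (against 0.722%) and 8 did not pass. In 9 of the 11 the knockout-labelled arrays lay wholly above the wild-type arrays (81.8%, against 11.5%). No difference between pathways was tested. The median on each knockout-labelled array, counted from each gene's wild-type mean, was 0.86, 0.49 and 0.65, against -0.12, -0.02 and 0.19 on the wild-type arrays. These ranges did not overlap, and neither did those of the Fanconi anaemia pathway, mismatch repair and end joining on this centred measure. Centring also draws the wild-type medians together. Uncentred medians overlapped for the Fanconi anaemia pathway (4.95 to 5.38 against 4.86 to 5.13) and mismatch repair (5.82 to 6.74 against 5.75 to 6.21). They also overlapped for end joining (7.29 to 8.07 against 7.31 to 7.58) and base excision. They did not for homologous recombination (6.40 to 6.90 against 5.90 to 6.23) or the checkpoint (8.52 to 8.70 against 8.02 to 8.47).

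Brca1, the tumour suppressor that directs resected ends into recombination, measured 9.30, 9.36 and 9.28 under the knockout label and 8.09, 8.21 and 8.55 in wild type. The knockout-labelled values lay close together and above every wild-type value. The log2 difference was 1.03 (SE 0.17, 2.04-fold, adjusted p = 0.0393). Bard1, its obligate partner in the ubiquitin ligase, could not be followed, since its single probe set lay between 1.97 and 2.36 on all arrays, within the level of the bacterial control probe sets, which reached 3.18.

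Rad51ap1, which assists strand invasion in recombination, measured 9.87, 9.68 and 9.71 under the knockout label and 8.70, 8.91 and 9.03 in wild type (log2 difference 0.88, SE 0.15, 1.84-fold, adjusted p = 0.0458). The groups did not overlap, and each spanned less than their separation. Rad54b and Rad54l are related DNA translocases that assist strand exchange. Rad54b measured 6.08, 6.01 and 6.44 against 5.02, 5.25 and 4.85, so all its knockout-labelled arrays were high (log2 difference 1.14, SE 0.19, 2.20-fold, adjusted p = 0.0409). Rad54l measured 9.06, 8.93 and 8.95 against 8.04, 8.12 and 8.43, also without overlap, and did not pass (0.78, SE 0.17, adjusted p = 0.0816).

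The calls of Brca1, Rad54b and Rad51ap1 depended on the arrays and on the filter. With no filter on dim probe sets, or one at the 25th percentile, 0 of the 3 passed, with adjusted p from 0.0639 to 0.107. Leaving out any 1 array lost all 3, except that Brca1 was kept without wild-type replicate 3, with adjusted p from 0.0365 to 0.145 for Brca1, 0.0629 to 0.148 for Rad54b and 0.0682 to 0.163 for Rad51ap1. The differences themselves stayed between 0.79 and 1.24 with 1 array left out.

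More members of the pathway had larger or like differences with a wider spread. Exo1, the exonuclease that resects broken ends and also serves mismatch repair, measured 5.09, 5.0 and 5.79 against 4.44, 3.85 and 3.93, the largest difference of the pathway (1.22, SE 0.25, adjusted p = 0.0769). Brca2, a tumour suppressor needed for recombination, measured 7.57, 7.43 and 8.17 against 6.56, 6.53 and 7.03 (1.02, SE 0.26, adjusted p = 0.122). In both genes knockout-labelled replicate 3 was the highest array and the groups did not overlap. Nbn and Rad50 belong to the complex that first recognises a break. Nbn measured 6.98, 6.69 and 6.45 against 5.18, 6.02 and 5.98 (0.98, SE 0.28, adjusted p = 0.154), with wild-type replicate 1 the lowest array, and Rad50 differed by 0.20 (SE 0.16, adjusted p = 0.581).

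Among the remaining members of the pathway 0 passed. The helicase Blm, mutated in Bloom syndrome, differed by 0.57 (SE 0.23, adjusted p = 0.288) with overlapping groups. Xrcc3, which acts in recombination, differed by 0.29 (SE 0.18, adjusted p = 0.463) and Palb2, the bridge between Brca1 and Brca2, by 0.27 (SE 0.25, adjusted p = 0.633). Rad51c, between 3.00 and 3.47, and Brip1, between 2.57 and 2.68, were among the genes not tested.

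The start regions of these genes were examined because several members of the pathway lay higher together. RefSeq start windows of build GRCm38.p6 were found for 36 of the 42 genes, 39 windows in all, and the 250 bases before each start were searched on both strands. The E2F motif, bound by the factors that switch on genes of the S phase, was searched as TTTCGCGC, TTTGGCGC or TTTCCCGC. It was found in 7 of the 39 windows (17.9%), those of Bard1, Brca2, Chek2, Fancg, Mdc1, Msh3 and Xrcc6, and in 1.53% of all 32851 windows of this length. The CCAAT box was found in 51.3% of the member windows and 33.8% of all windows, and the cell cycle homology region, searched as TTTGAA or TTCGAA, in 10.3% and 17.1%. The 2 motifs other than CCAAT were absent as these letters from the windows of Brca1 and Rad51ap1, and Rad54b is named only. All windows include those of noncoding genes and were not matched for base composition, and the 2 windows of Rad54l overlap.

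The windows of Rad51ap1 and Brca1, which rose, and of Brca2, which carries an E2F match, are shown to let the motif matches be seen in place. Capitals mark motif matches: CCAAT or its reverse complement in the first 2, and the reverse complement of TTTCCCGC in Brca2, 168 bases before the start. Each sequence is from RefSeq (GRCm38.p6), runs 5' to 3' on the gene's strand and ends at the base before the start. Rad51ap1 is at chr6:126939588-126939837 (minus strand), Brca1 at chr11:101551956-101552106 (minus strand, cut to the 151 bases that lie outside the neighbouring gene Nbr1) and Brca2 at chr5:150522371-150522620 (plus strand).
Rad51ap1: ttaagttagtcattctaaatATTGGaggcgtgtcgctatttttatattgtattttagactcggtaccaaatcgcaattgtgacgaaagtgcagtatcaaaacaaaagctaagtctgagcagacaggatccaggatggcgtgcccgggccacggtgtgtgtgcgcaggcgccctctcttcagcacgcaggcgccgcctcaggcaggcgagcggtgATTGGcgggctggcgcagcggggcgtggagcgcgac
Brca1: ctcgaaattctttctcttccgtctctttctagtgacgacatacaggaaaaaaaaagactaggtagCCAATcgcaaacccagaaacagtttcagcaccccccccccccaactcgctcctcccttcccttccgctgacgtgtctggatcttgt
Brca2: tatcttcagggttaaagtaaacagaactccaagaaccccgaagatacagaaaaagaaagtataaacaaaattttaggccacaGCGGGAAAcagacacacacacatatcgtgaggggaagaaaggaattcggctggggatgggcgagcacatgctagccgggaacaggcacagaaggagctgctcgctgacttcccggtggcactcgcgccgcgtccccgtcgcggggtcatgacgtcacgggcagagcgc

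In the Fanconi anaemia pathway 0 of 7 tested members passed in either direction, and the median difference over its 8 genes was 0.26. An unadjusted p under 0.05 was reached by 1, upwards (against 7.52% of all probe sets tested). Fanca, a subunit of the core complex that ubiquitinates Fancd2 and Fanci, had the largest difference of all 42 genes. It measured 6.62, 6.51 and 7.77 under the knockout label and 5.70, 5.52 and 5.72 in wild type (1.32, SE 0.33, adjusted p = 0.123). Knockout-labelled replicate 3 stood well above the other 5 arrays, and without it the difference was 0.92.

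Fancc, another core subunit, was the member with the lowest difference. It measured 5.53, 5.15 and 5.74 against 6.04, 5.85 and 5.89, wholly below the wild-type arrays (-0.45, SE 0.19, adjusted p = 0.305). Fanci, a target of the core complex, measured 4.62, 4.75 and 5.01 against 4.56, 4.58 and 3.98 (0.43, SE 0.20, adjusted p = 0.343), without overlap. Its partner Fancd2 measured 3.81, 3.80 and 4.34 against 3.89, 3.81 and 3.38 (0.29, SE 0.20, adjusted p = 0.511), and these groups overlapped. Fancm, the translocase that brings the core complex to DNA, differed by 0.23 (adjusted p = 0.560), the ligase subunit Fancl by 0.12 (adjusted p = 0.862) and Fancb by 0.02 (adjusted p = 0.952). Fancg, between 3.29 and 4.17, was not tested. On these probe sets the 2 core subunits Fanca and Fancc stood at opposite ends of the pathway, though neither passed. A second tested probe set of Fancc differed by 0.06 with overlapping groups (adjusted p = 0.923).

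All 3 tested mismatch repair genes had a higher mean on the knockout-labelled arrays, and 0 passed. Msh6, which finds single mismatches, measured 9.36, 9.44 and 9.47 against 9.05, 9.37 and 9.11 (0.24, SE 0.15, adjusted p = 0.469). Pms2, which nicks the new strand, measured 6.74, 5.75 and 6.13 against 5.59, 5.25 and 6.21 (0.52, SE 0.33, adjusted p = 0.480). Msh3, which finds larger loops, measured 5.79, 5.82 and 6.22 against 5.92, 5.75 and 5.81 (0.12, SE 0.18, adjusted p = 0.80). On these probe sets the groups overlapped in each of the 3 genes. A second tested probe set of Pms2 measured 6.38, 6.38 and 5.84 against 5.66, 5.36 and 5.44, without overlap (0.72, SE 0.21, adjusted p = 0.160).

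End joining showed the same pattern of small positive differences, with 0 of 4 genes past the threshold and overlapping groups in all 4. Prkdc, the catalytic subunit of the kinase that holds broken ends, measured 7.27, 7.83 and 8.14 against 7.39, 7.17 and 6.98 (0.56, SE 0.26, adjusted p = 0.330). Lig4, the ligase that seals them, measured 3.91, 4.4 and 4.50 against 3.63, 3.39 and 4.32 (0.49, SE 0.26, adjusted p = 0.40). Knockout-labelled replicate 1 was the lowest of its group in both. The Ku subunits, which bind the ends first, differed less. Xrcc6 (Ku70) measured 8.37, 8.73 and 8.55 against 8.02, 8.37 and 8.25 (0.33, SE 0.18, adjusted p = 0.40), and Xrcc5 (Ku80) measured 7.31, 8.04 and 7.99 against 7.76, 7.60 and 7.64 (0.11, SE 0.23, adjusted p = 0.856). The median difference of the 4 genes was 0.41.

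In base excision and single-strand break repair 0 of 6 genes passed, and 1, Neil3, stood apart from the others in size. Neil3, a glycosylase expressed mainly in dividing cells, measured 6.06, 6.51 and 5.67 under the knockout label and 4.96, 4.53 and 5.23 in wild type (1.18, SE 0.27, adjusted p = 0.0980). Its groups did not overlap, and knockout-labelled replicate 3 and wild-type replicate 3 came closest to each other. Parp1, which marks single-strand breaks with poly(ADP-ribose), measured 10.04, 10.15 and 10.50 against 9.83, 9.87 and 9.93 (0.36, SE 0.16, adjusted p = 0.314). Its scaffold Xrcc1 measured 7.49, 7.37 and 7.88 against 7.34, 7.20 and 7.25 (0.32, SE 0.19, adjusted p = 0.464). Both had knockout-labelled arrays above all wild-type arrays by a narrow margin.

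On the probe sets that represent them, the other 3 genes of base excision overlapped between the groups. Another tested probe set of Lig3 lay wholly below the wild-type arrays (-0.41, adjusted p = 0.373). Ung, which removes uracil from DNA, differed by 0.25 (SE 0.22, adjusted p = 0.627) and the ligase Lig3 by -0.10 (SE 0.22, adjusted p = 0.863). Apex1, the endonuclease that cuts at the site left by a glycosylase, measured 11.38, 11.55 and 11.96 against 11.78, 11.79 and 12.33 (-0.34, SE 0.21, adjusted p = 0.465). The pathway's median difference was 0.28.

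The checkpoint genes had both higher and lower means under the knockout label, with a median difference of -0.01 and 0 of 7 past the threshold. Chek1, the effector kinase of the replication checkpoint, measured 9.52, 9.19 and 8.85 against 8.28, 8.02 and 9.04 (0.74, SE 0.30, adjusted p = 0.282). Its groups overlapped because wild-type replicate 3 exceeded knockout-labelled replicate 3. Atr, the kinase that activates Chek1, measured 8.99, 8.74 and 8.01 against 7.96, 8.00 and 7.61 (0.72, SE 0.27, adjusted p = 0.257), without overlap but with knockout-labelled replicate 3 just above the highest wild-type array. Its partner Atrip differed by -0.05 (SE 0.23, adjusted p = 0.935).

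Genes of the double-strand break branch lay closer to 0. Atm measured 8.52, 8.70 and 8.67 against 8.43, 8.37 and 8.47 (0.21, SE 0.15, adjusted p = 0.539), and its effector Chek2 differed by -0.01 (SE 0.15, adjusted p = 0.981). The scaffold Mdc1 differed by -0.10 (SE 0.24, adjusted p = 0.878). Trp53bp1, which shields broken ends from resection and steers them to end joining, measured 12.99, 12.63 and 12.97 against 12.84, 12.89 and 13.08 (-0.08, SE 0.13, adjusted p = 0.829). On the probe sets that represent these genes, the groups overlapped in all but Atm.

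**Figure D2:**
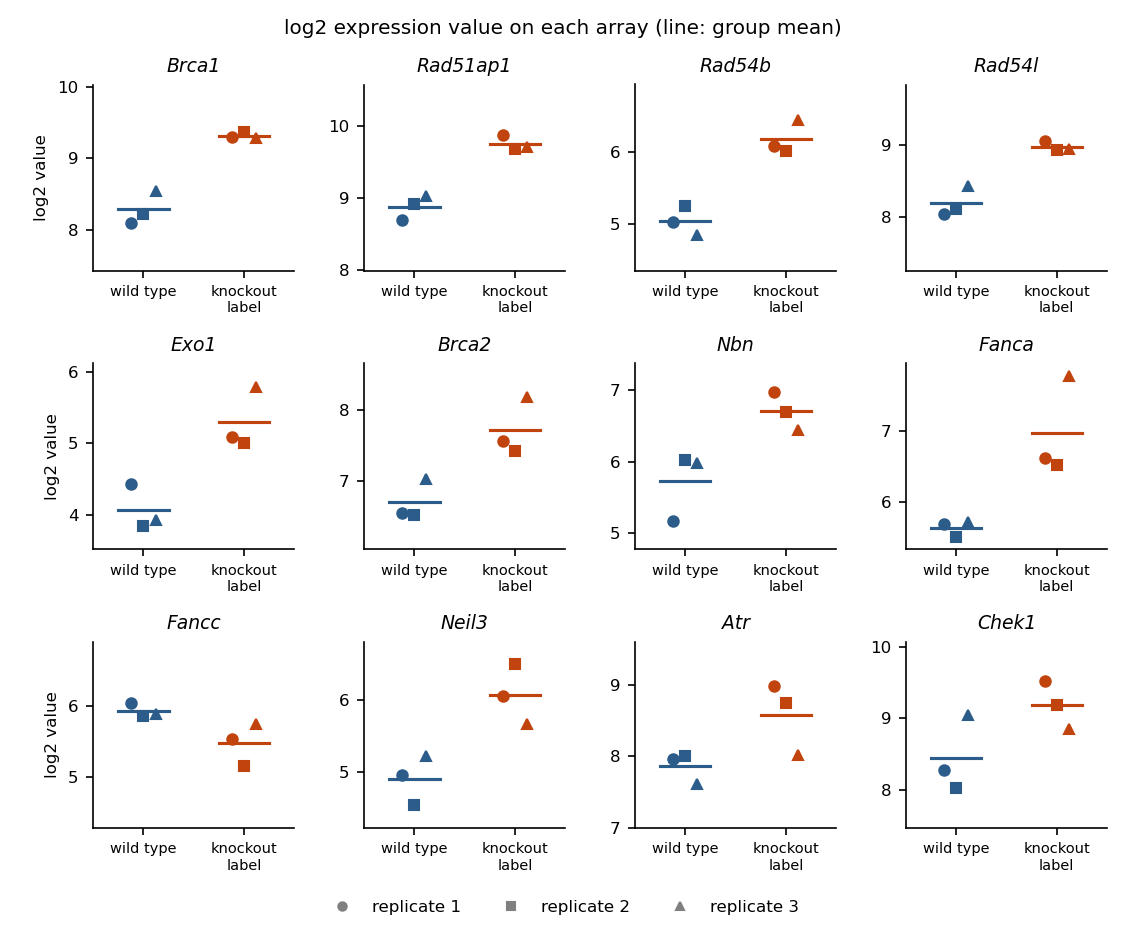
Log2 expression value of 12 genes on each array, wild type on the left and knockout label on the right, with symbols for the replicate number, lines for the group means and a y axis of equal span in every panel. The groups separate in every panel but that of Chek1, and Fancc is the gene whose knockout-labelled arrays lie below. The 12 are a selection that holds no gene of mismatch repair or end joining. Among all 38 tested members the knockout-labelled arrays lay wholly above for 17 and wholly below for 1 (against 11.5% and 11% of all probe sets tested).

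Several members were read by more than 1 probe set, which allows the pattern to be checked within a gene. Of 27 other tested probe sets, in 15 genes, 20 differed in the same direction as the one that represented the gene, and 1 passed the threshold. That was a probe set of Atr, at 5.40, 5.51 and 5.44 under the knockout label and 4.57, 4.43 and 4.61 in wild type (0.91, adjusted p = 0.0280), and it is singled out here because of that value. All 3 tested probe sets of Atr thus had a higher mean on the knockout-labelled arrays, as had all 4 of Rad54l (0.68 to 0.84) and both of Rad51ap1. The second probe set of Neil3, 1 of the 20, lay above the array median on 3 knockout-labelled and 0 wild-type arrays, so the filter fixed its direction and nothing is read from it.

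Trp53bp1 was the gene whose probe sets disagreed most, from -0.34 to 0.69 over 5 tested probe sets. Fancc, Fancm, Msh3, Parp1 and Xrcc3 each had 1 tested probe set of the opposite sign. With all probe sets of a gene averaged, dim ones included, the median of homologous recombination was 0.34, Brca1 differed by 0.28 (adjusted p = 0.158) and Rad51ap1 by 0.40 (adjusted p = 0.160), and Rad54b, which has 1 probe set, was the member still past the threshold. The 3 further probe sets of Brca1 all lay between 2.23 and 3.13, under the brightest bacterial control value, 3.18.

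**Figure D3:**
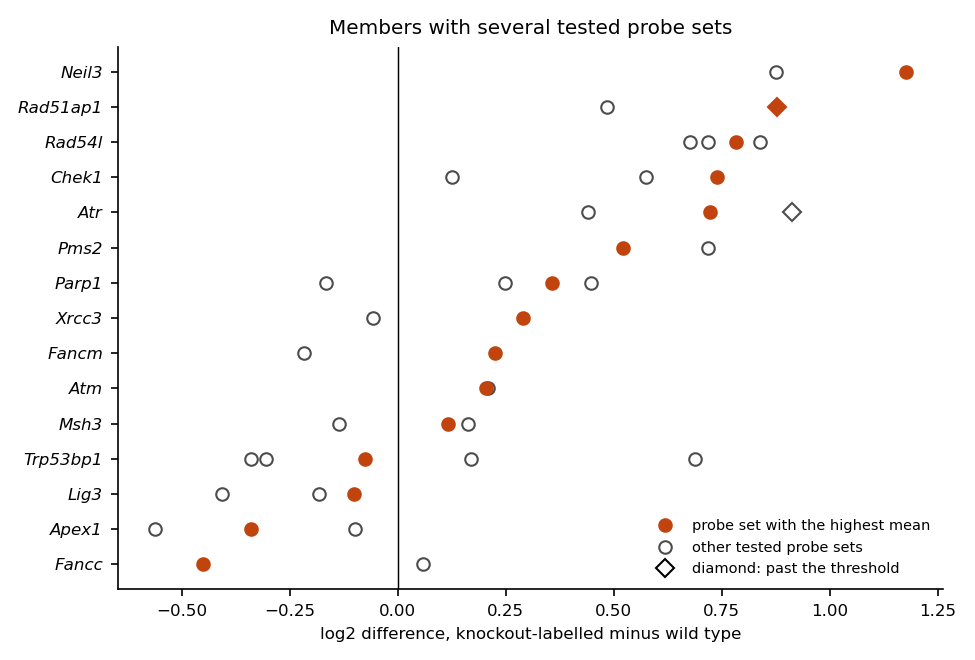
Log2 difference (knockout-labelled minus wild type) of each tested probe set of the 15 genes with more than 1, filled for the probe set with the highest mean and open for the others. Diamonds mark probe sets past the threshold, 1 of Rad51ap1 and 1 of Atr, and the open points of Rad54l lie on the same side of 0 as the filled one, whereas those of Trp53bp1 lie on both sides.

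A broader list of 101 further repair and checkpoint genes, 92 of them with a probe set, was set beside the members. Among the 78 that were tested, 1 gene rose (1.28%, against 0.664% of all probe sets tested) and 0 fell (against 0.722%). The median difference of the 92 was 0.12. Timeless, which keeps the replication fork coupled to the checkpoint, measured 8.00, 7.59 and 7.82 against 5.96, 6.46 and 6.67 (1.44, SE 0.23, adjusted p = 0.0390). Its groups did not overlap. Knockout-labelled arrays lay wholly above the wild-type arrays for 18 of the 78 (23.1%, against 11.5% of all probe sets tested) and wholly below for 5 (against 11%). No gene of the list was called once any 1 array other than wild-type replicate 3 was left out.

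Genes of the p53 response, the transcriptional arm of the damage checkpoint, had a median difference close to that of all probe sets. A list of p53 and its targets had 30 tested genes, of which 1 rose (3.33%, against 0.664% of all probe sets tested) and 0 fell. Knockout-labelled arrays lay wholly above for 6 of the 30 and wholly below for 6 (against 11.5% and 11%). The median difference of the 34 on the array was 0.04, with 19 means higher and 15 lower. Pmaip1, which encodes the pro-apoptotic protein Noxa, measured 7.09, 6.5 and 6.31 against 5.16, 4.86 and 5.44 (1.48, SE 0.26, adjusted p = 0.0454) and lost the call without any 1 array. The CDK inhibitor Cdkn1a, the classical p53 target, measured 12.04, 11.29 and 10.86 against 11.12, 10.41 and 10.41 (0.75, SE 0.32, adjusted p = 0.309), with overlapping groups. Mdm2, the ligase that limits p53, differed by -0.14 (SE 0.16, adjusted p = 0.731). Neither of these passed, and both are given for their role, with their values known beforehand.

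Markers of dividing cells also leaned towards the knockout label. The 14 proliferation markers were all tested, with a median difference of 1.39. Of these, 7 rose (50%, against 0.664% of all probe sets tested) and 0 fell (against 0.722%). Those that rose were Ccna2, Mki67, Tk1, Rrm2, Mcm5, Bub1 and Ccnb2, with differences from 1.15 (Mcm5) to 2.02 (Ccnb2). The summed linear value of the 14 ranged from 21061 to 23488 on the knockout-labelled arrays and from 12288 to 17189 on the wild-type arrays. Its part in the differences of the repair genes was not tested.

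Markers of other cells moved with the groups as well. Of 20 T and NK cell markers on the array 11 were tested. Of these, 5 rose (45.5%, against 0.664% of all probe sets tested) and 0 fell (against 0.722%). The summed linear value of the 20 ranged from 9623 to 20530 on the knockout-labelled arrays against 686 to 1156 on the wild-type arrays. The log2 differences of the 20 ran from -0.21 to 4.93 with a median of 0.88, and the sum gives most weight to the brightest genes. Cd4, Cd8b1, Zap70, Ncr1 and Prf1 stayed at the level of the bacterial controls on all 6 arrays, and 11 of the 20 lay above it on every array. The 5 that rose are not named here. Knockout-labelled replicate 3 was highest, with a median of 2.24 above the wild-type mean over the 20 markers, against 0.19 and 0.10 on replicates 1 and 2. Without that array the median difference of the 42 repair genes was 0.22 and that of homologous recombination 0.68. Replicates 1 and 2, which were kept, had summed T and NK values of 10366 and 9623, also above every wild-type array. Leaving out replicate 3 therefore did not remove the T and NK signal. All 10 stem cell markers on the array lay above the bacterial controls on every array. Of them, 9 had a lower mean under the knockout label (median difference -0.25). In the limma test 0 passed in either direction. An unadjusted p under 0.05 was reached by 4 downwards and 1 upwards (against 8.9% and 7.52% of all probe sets tested). Knockout-labelled arrays lay wholly below for 4 and wholly above for 1 (against 11% and 11.5% of all probe sets tested). The summed linear value of the 10 ranged from 21704 to 24280 on the knockout-labelled arrays and from 26170 to 29118 on the wild-type arrays. Of the remaining marker lists, 1 of 7 tested monocyte markers rose (14.3%, against 0.664% of all probe sets tested). Of the tested B cell, neutrophil and erythroid markers, 0 of 2, 0 of 4 and 0 of 3 did. The part of these cells in the repair gene values was not tested.

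**Figure D4:**
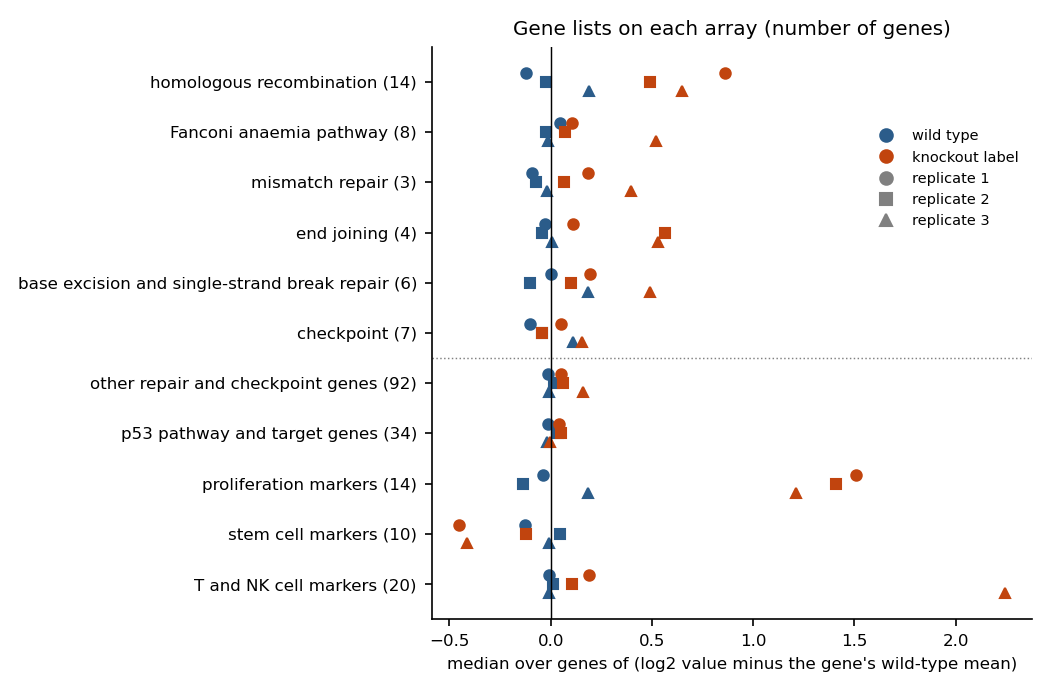
Median over the genes of each list of the log2 value minus the gene's wild-type mean, for each of the 6 arrays, with the number of genes in parentheses and the 6 groups of members above the dotted line. On this centred measure knockout-labelled arrays lie wholly above wild-type arrays for homologous recombination (0.49 to 0.86 against -0.12 to 0.19), mismatch repair and end joining. So they do for the Fanconi anaemia pathway, narrowly (0.07 to 0.52 against -0.02 to 0.05). The arrays overlap for base excision and the checkpoint. Below the dotted line they separate for the other repair genes (0.05 to 0.16 against -0.01 to 0.01), proliferation markers and T and NK cell markers. They overlap there for p53 genes and stem cell markers.

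The array medians lay between 3.67 and 3.73, and actin's 3' minus 5' probe set value, a sign of how far the amplified RNA covered a transcript, overlapped between the groups (2.81 to 3.56 on knockout-labelled and 2.57 to 3.16 on wild-type arrays).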

How the data were processed

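The values the authors deposited are log2 expression values per probe set, produced by GCRMA, per the submitters' processing notes. Neither its version nor its settings are given in the sources used here. The values' range shows the log2 scale. They were used as deposited. RNA was amplified by T7 transcription per the labels' protocols, which favours the 3' ends of transcripts. Gene names come from the platform table (34958 of 45101 probe sets had 1 symbol).

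Tests covered probe sets brighter than the median of the array on 3 or more of the 6 arrays. The fit was limma 3.58.1 in R 4.3.3 (lmFit, eBayes with trend), 2-sided, with Benjamini-Hochberg adjustment over 22580 probe sets and a threshold of 0.05. It was tested on simulated data. Values are shown on each array for members past the threshold and the 4 of each pathway with the smallest p, and others by role. Of the further repair genes, the p53 list and the proliferation markers, those past the threshold are named, at most 6 each. Ccnb2 was added after its value was seen. Markers of other cell types past the threshold are counted and not named. Members, lists and tests were chosen with earlier results of these data known. Alternatives were other filters, normalisations, variance models, array weights, a replicate block, averaged probe sets, a looser threshold and each array left out. Precision is limited by the 3 arrays per group. Same-numbered arrays did not deviate together (correlations -0.11, -0.02 and -0.28), so the numbers were not taken as pairs.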

Additional observations from a re-analysis of the deposited data

How the results depend on the processing

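No member was called lower under any of the 17 alternatives, against 0 in the fit reported, and the median difference of the 42 genes stayed between 0.22 and 0.35. The count of 3 higher members became 0 with no filter on dim probe sets, 0 with a filter at the 25th percentile, 7 with array weights, 1 with probe sets averaged and 6 at adjusted p under 0.1. With the replicate number as a block it was 0, and the counts over all probe sets went from 150 to 27 higher and from 163 to 41 lower. The numbers were not taken as pairs because same-numbered arrays did not deviate together. That does not settle whether such arrays were processed together. Over all probe sets the counts were 49 and 54 with no filter, 62 and 64 at the 25th percentile, 401 and 463 with array weights and 314 and 315 at the looser threshold. With 1 array left out they ranged from 17 to 138 higher and 28 to 129 lower, the members from 0 to 1 higher, proliferation markers from 1 to 6, the further repair genes from 0 to 1 and the p53 list at 0. The further repair genes had 0 higher with no filter, at the 25th percentile and under the block, 4 with array weights, and 3 with averaged probe sets or the looser threshold. The p53 list had 0 with no filter, at the 25th and 70th percentiles, with quantile normalisation and under the block. Proliferation markers had 4 with no filter, at the 25th percentile and under the block. The median of homologous recombination was 0.34 with averaged probe sets and 0.58 to 0.82 with 1 array left out, and that of the checkpoint -0.072 to 0.176. Signs turned for Msh3 (-0.031) and Trp53bp1 (0.062) with averaged probe sets. With 1 array left out the differences ranged from -0.023 to 0.193 for Msh3, -0.017 to 0.350 for Xrcc5 and -0.139 to 0.042 for Trp53bp1. With a filter at the 70th percentile 2 members were called, Brca1 and Rad51ap1, and Rad54b was not tested. The cause of these changes was not tested.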
